A study of Mus musculus with 2 samples.

Results

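The transcripts described here are those of 10 digestive enzyme genes, Prss2, Ctrb1, Cela1, Cela2a, Cela3b, Try4, Try5, Cpa1, Pnlip and Clps, out of 27998 genes in the count tables of 2 single-cell libraries of mouse pancreatic islets. All 10 gene symbols were found, each in 1 row. The set was chosen by its UMI counts (unique molecular identifiers, 1 per captured transcript) in these libraries, being high in a few acinar cells, the enzyme-making cells that surround the islets. A cell was called acinar when the set made up at least 20% of its UMIs. Its level in acinar cells is therefore a description. By this rule 0 of 4339 wild type cells and 2 of 3977 transgenic cells were acinar.

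Both libraries came from islets of C57BL/6 mice at postnatal day 70, dissociated with trypsin and EDTA and captured on the 10x Chromium platform, which counts the 3 prime ends of transcripts. One group was wild type and the other carried a beta cell specific miR-503 transgene, in the same strain. The promoter that drives the transgene and the number of animals behind each library are not given in the sources used here. Each group was 1 library, so no difference below has a replicate check and no test was made. The 95% intervals (exact Poisson for UMIs per cell, exact Clopper-Pearson for shares, exact conditional binomial for ratios) cover counting error only. The wild type matrix held 4540 barcodes and 104677537 UMIs, and the transgenic matrix 4158 barcodes and 109243270 UMIs, with 25 barcode sequences in both. Xist, the RNA that coats the inactive X chromosome of female cells, gave 14 UMIs in wild type against 6890 in transgenic barcodes, and the sex of the animals is not given in the sources used here.

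Acinar cells make digestive enzymes as inactive precursors, pack them into zymogen granules and release them into the pancreatic ducts. The proteases are made as trypsinogens, chymotrypsinogens, proelastases and procarboxypeptidases, and trypsin, once active, cleaves the others. Pancreatic lipase digests fat and needs colipase beside it. The factor complex PTF1 turns on these genes in acinar cells through a paired site made of an E-box and a TC-box. When an islet is dissociated, RNA from broken acinar cells can be carried into droplets that hold other cells, so low counts of these genes serve as a gauge of free RNA.

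By role, the set holds the trypsinogens Prss2, Try4 and Try5, the chymotrypsinogen Ctrb1, the elastases Cela1, Cela2a and Cela3b, the carboxypeptidase Cpa1, the lipase Pnlip and its colipase Clps. All 10 are protein-coding genes in the GENCODE vM21 annotation of GRCm38, the same assembly as mm10. The trypsinogens lie in 1 stretch of chromosome 6, Try4 at 41302269 to 41305532 on the plus strand, Try5 at 41311233 to 41316841 on the minus strand and Prss2 at 41521787 to 41525079 on the plus strand, with the related Prss3, Gm5771 and Prss1 between Try5 and Prss2. Cpa1 is on the same chromosome at 30639218 to 30645363. Ctrb1 lies on chromosome 8 at 111686519 to 111691010, Cela1 on chromosome 15 at 100674421 to 100687921, Clps on chromosome 17 at 28558149 to 28560766 and Pnlip on chromosome 19 at 58652498 to 58681788. On chromosome 4, Cela3b lies at 137420999 to 137430540 and Cela2a at 141814962 to 141826160. Cela2a lies within the annotated span of the chymotrypsinogen gene Ctrc on the same strand, so counts of the pair may not be fully told apart. Overlap of their exons was not examined, and the annotation used for counting is not given.

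The trypsinogens are close copies, and how their reads were divided is uncertain. The longest annotated coding transcripts of Try4 and Try5 matched at 97.1% of 801 aligned bases and shared an unbroken run of 104 bases within their last 300 bases, the end that is counted. Prss2 matched Try4 at 89.8% and Try5 at 88.5%, with shared runs of 57 and 62 bases. Outside the set, Prss1 and Gm5771 matched at 97.8%, with a shared run of 147 bases. The 3 elastases were further apart, at 63.5% to 69.9%, with shared runs of at most 12 bases.

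Promoters were matched in RefSeq (GRCm38.p6) for 8 of the 10 genes, all but Try5 and Clps. The 250 bases before the RefSeq start were searched on both strands for the E-box CACCTG and the TC-box TTTCCCA. The E-box was in 5 of the 8 (Cela3b, Cela2a, Try4, Prss2 and Cela1) and in 17.2% of all 32851 promoters. The TC-box was in 4 of the 8 (Cela2a, Cpa1, Prss2 and Ctrb1) and in 6.82% of all promoters. Both were present in Cela2a and Prss2, and in 1.17% of all promoters. The E-box and TC-box began 218 and 85 bases before the start in Cela2a, and 169 and 111 in Prss2. Whether boxes so spaced form the paired site was not tested. The 4 promoters below are shown because they belong to the pair of genes with both motifs, to Ctrb1, the most abundant of the set in beta-like cells, and to Cela1, whose spread over cell types stood apart. Capitals mark the motif on either strand. The windows are chr4:141826006-141826255 (minus strand), chr6:41521526-41521775 (plus strand), chr8:111691011-111691260 (minus strand) and chr15:100687921-100688170 (minus strand). RefSeq and GENCODE place some starts differently: 155 of the 250 bases of the Cela2a window, its TC-box among them, and all 250 of the Pnlip window lie inside the GENCODE gene spans given above. A match is a description of letters and says nothing of binding in these cells.
Cela2a: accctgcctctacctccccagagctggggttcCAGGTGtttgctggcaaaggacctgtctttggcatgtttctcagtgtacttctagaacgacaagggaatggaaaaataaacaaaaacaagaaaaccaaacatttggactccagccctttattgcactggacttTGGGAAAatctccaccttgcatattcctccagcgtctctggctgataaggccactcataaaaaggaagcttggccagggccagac
Prss2: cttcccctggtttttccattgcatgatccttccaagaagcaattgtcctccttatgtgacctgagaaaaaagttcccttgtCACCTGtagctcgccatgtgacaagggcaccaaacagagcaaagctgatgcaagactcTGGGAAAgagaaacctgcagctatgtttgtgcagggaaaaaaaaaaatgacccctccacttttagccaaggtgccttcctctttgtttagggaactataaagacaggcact
Ctrb1: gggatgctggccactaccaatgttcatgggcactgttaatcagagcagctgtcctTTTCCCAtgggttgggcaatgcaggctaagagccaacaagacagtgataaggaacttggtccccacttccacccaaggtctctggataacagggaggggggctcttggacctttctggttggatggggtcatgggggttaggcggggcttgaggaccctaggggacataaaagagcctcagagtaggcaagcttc
Cela1: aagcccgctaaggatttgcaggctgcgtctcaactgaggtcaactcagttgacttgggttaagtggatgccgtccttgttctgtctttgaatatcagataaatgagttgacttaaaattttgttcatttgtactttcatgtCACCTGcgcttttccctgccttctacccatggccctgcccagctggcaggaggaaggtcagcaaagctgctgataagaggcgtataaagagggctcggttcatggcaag

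Acinar cells were very few. With 0 of 4339 wild type cells at 20% or more, a count of 0 allows a share of up to 0.0691%. The 2 transgenic cells made up 0.0503% (0.00609 to 0.182). Their set shares were 64.0% (12867 of 20099 UMIs) and 21.6% (8186 of 37971 UMIs), and the next highest transgenic cell lay just outside the threshold at 15.9% (2638 of 16563 UMIs). A further pair of transgenic cells stood at 11.1% (4071 UMIs) and 3.58% (1889 UMIs), and 1 at 0.515% (163 UMIs). In the wild type library the highest cells stood at 3.07% (934 UMIs), 2.98% (421), 1.08% (218) and 0.916% (333). After these 6 and 4 cells the shares dropped to 0.246% and 0.223%, as the plot of ranked shares shows. All 10 genes were detected in each of these cells except the transgenic cell at 0.515%, which had no Pnlip.

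**Figure D1:**
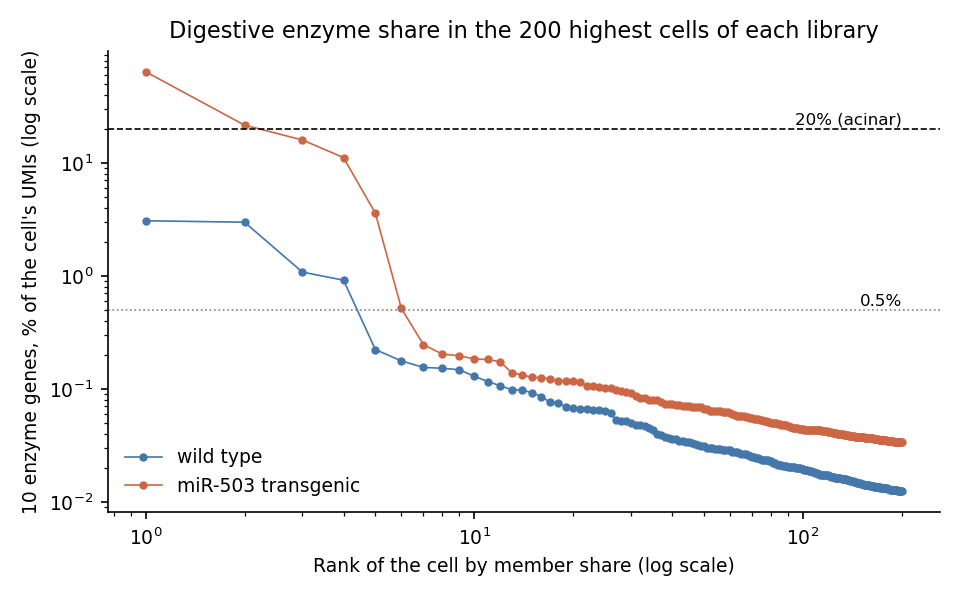
Share of each cell's UMIs taken by the 10 enzyme genes (log axis) against the rank of the cell (log axis) for the 200 highest cells of each library, 1 point per cell. Only 2 transgenic cells lie above the dashed line at 20%, and 6 transgenic and 4 wild type cells lie above the dotted line at 0.5%.

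The 2 acinar cells differed from each other. In the first, which had 1114 detected genes and 0.0995% mitochondrial UMIs, Cela2a led with 2754 UMIs, followed by Ctrb1 with 2246, Clps with 1448 and Try4 with 1282. The second had 3876 detected genes and 0.166% mitochondrial UMIs, and Try5 led with 2938 UMIs, followed by Ctrb1 with 2034 and Prss2 with 1319. The elastases made up 35.4% of the set's UMIs in the first and 10.2% in the second, and the trypsinogens 23.8% and 54.3%. Cela1 had 972 UMIs in the first cell and 97 in the second. For Pnlip the counts were 596 and 160.

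Other acinar genes were read in both cells. Of 41 listed acinar genes outside the set, 39 were in the gene table, and 29 and 27 of these had a UMI in the first and the second cell. The highest over both were the trypsinogen-like 2210010C04Rik (563 and 700 UMIs), Reg1 (350 and 609), Pnliprp1 (339 and 284), the carboxypeptidase Cpb1 (364 and 181) and the granule protein Sycn (442 and 99). The bile-salt lipase Cel had 328 and 7 UMIs, and Zg16, a zymogen granule membrane protein, 356 and 23. Spink1, the trypsin inhibitor, had 90 and 413. Transcription factors were near 0: Ptf1a had 4 and 0 UMIs, Rbpjl 0 and 2, and Bhlha15 1 and 0. The amylase genes Amy1 and Amy2a5 each had 1 UMI in the first cell and 3 in the second, and Amy2a1 had 0. Amylase genes are near-identical copies, and reads that match several genes may be lost or split, so their level is uncertain.

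Some markers of other cell types were read in these droplets. Insulin made up 3.53% and 2.39% of the UMIs outside the set. That was near its median share in transgenic cells classed below as alpha-like (2.86%), delta-like (2.79%) and immune-like (2.58%). Keratins of duct-type epithelium, picked after their values were seen, separated the pair: Krt8 had 3 and 100 UMIs, Krt18 3 and 79, and Krt19 0 and 16. The cells at 15.9%, 11.1% and 3.58% carried Krt8 at 22, 119 and 229 UMIs and Krt18 at 17, 111 and 230. The duct gene Sox9 had at most 3 UMIs and Spp1 had 0 in these 5 cells. None of the 5 was among the top 4% of doublet scores. Whether the droplets held more than 1 cell was not tested further.

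The enzyme makeup fell into more than 1 pattern among the high cells. In the second acinar cell and in the cells at 15.9%, 11.1%, 3.58% and 0.515%, Try5 took 35.9% to 45.1% of the set and all trypsinogens together 51.5% to 70.7%. Try4 took 0.0529% to 2.30% in the same cells. In the first acinar cell Try4 (9.96%) was above Try5 (4.75%). In the wild type cells at 3.07% and 0.916%, Prss2 took 10.6% and 11.1% of the set and Try4 7.71% and 10.8%. In the wild type cells at 2.98% and 1.08%, Prss2 took only 1.43% and 1.38%, while Try4 took 17.3% and 19.3%, and Try5 19.5% and 23.9%.

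**Figure D2:**
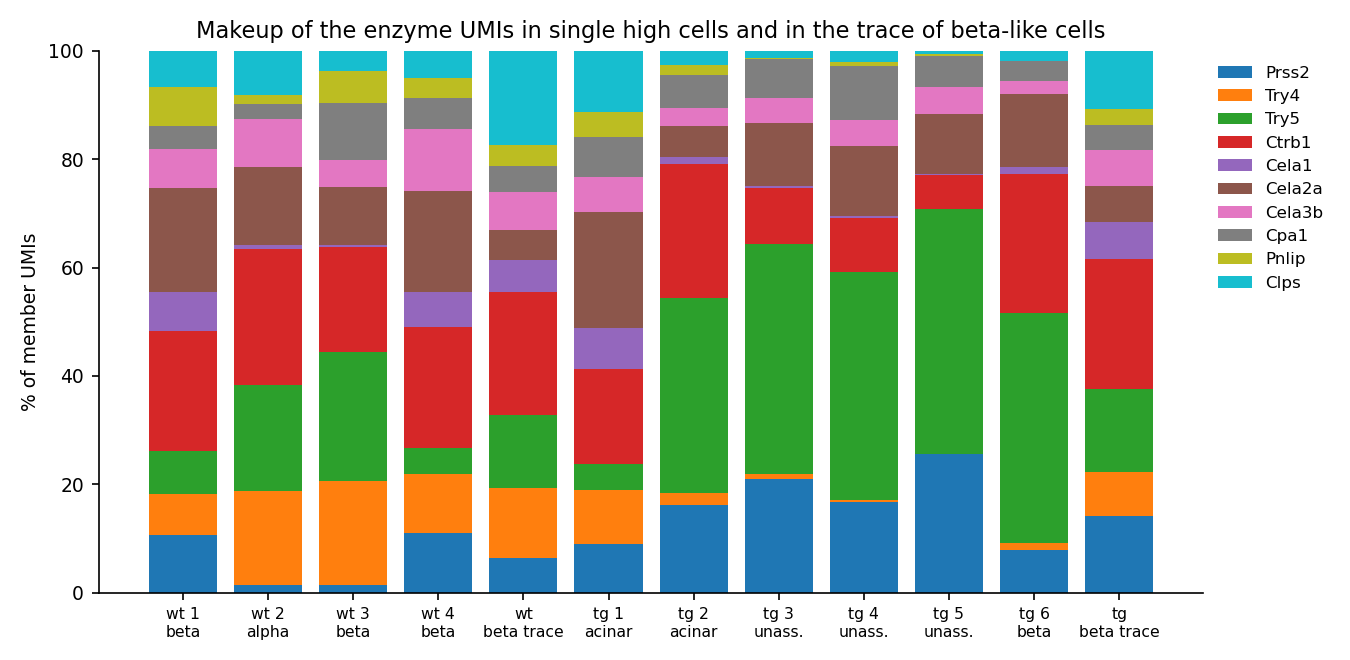
Makeup of the set's UMIs (percent, stacked to 100) in each cell at 0.5% or more, numbered by rank within wild type (wt) and transgenic (tg) and named by class (unass. for unassigned), beside the trace summed over the other beta-like cells of each library. Try5 is the widest band in tg 2 to tg 6, and Prss2 is nearly missing from wt 2 and wt 3.

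A group of 3 further trypsinogens, Prss1, Prss3 and Gm5771, was read in 2 of the 4 high wild type cells and hardly in the others. They held 184 UMIs in the cell at 2.98% and 74 in the cell at 1.08%, which is 53.3% (47.9 to 58.7) and 43.3% (35.7 to 51.1) of all UMIs of the 6 trypsinogens. In the wild type cells at 3.07% and 0.916% they held 1 and 0 UMIs. In the 2 acinar cells they held 3 UMIs each, 0.0979% and 0.0674% of the 6. In the traces of ordinary cells the share of these 3 genes differed between the libraries. In beta-like cells of the wild type outside the high ones these 3 genes held 290 of 772 trypsinogen UMIs (37.6%, 34.1 to 41.1), and in alpha-like cells 32 of 101 (31.7%, 22.8 to 41.7). The transgenic beta-like cells had 21 of 2841 (0.739%, 0.458 to 1.13) and the alpha-like cells 3 of 594 (0.505%, 0.104 to 1.47). With 1 library per group, genotype, animal and library cannot be told apart as the source of this difference.

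Cells other than acinar cells were classed by hormone share or by immune markers, leaving the set's own genes out. Beta-like cells had at least 20% of their UMIs from Ins1 and Ins2, alpha-like and delta-like cells at least 5% from Gcg or Sst, and immune-like cells at least 0.1% from fixed immune markers and little hormone. The wild type library held 3260 beta-like, 444 alpha-like, 103 delta-like and 92 immune-like cells. The transgenic library held 2630, 660, 204 and 148. Ptprc, a marker of all white blood cells, was at 139 and 140 CPM (UMIs scaled to a class total of 1000000) in immune-like cells and at or below 1.56 CPM in the other 3 classes. Sst was at 105788 and 119232 CPM in delta-like cells. Median depth ran from 8782 UMIs in wild type delta-like cells to 29014 in transgenic beta-like cells.

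The set was read at low level in every one of these classes, and higher in the transgenic library. Over all kept cells wild type beta-like cells had 0.906 UMIs per cell (0.874 to 0.940), alpha-like cells 1.71 (1.59 to 1.84), delta-like cells 1.41 (1.19 to 1.66) and immune-like cells 0.217 (0.133 to 0.336). Transgenic values were 2.91 (2.85 to 2.98), 2.56 (2.44 to 2.68), 2.34 (2.14 to 2.56) and 2.22 (1.99 to 2.48). The median cell had 0 UMIs in all 4 wild type classes and 2 in all 4 transgenic classes. A few cells decided the wild type sums: the 4 cells at 0.5% or more held 1906 of 4356 UMIs of the set (43.8%). Without them the beta-like value was 0.451 (0.429 to 0.475) and the alpha-like value 0.763 (0.684 to 0.849). The transgenic beta-like value was 2.85 (2.79 to 2.92) without its 1 such cell. In the transgenic library the 6 cells at 0.5% or more, acinar cells included, held 73.1% of 40782 UMIs. All values below leave out cells at 0.5% or more unless stated.

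Over all kept cells and 10 genes, the highest class was 1.31-fold (1.17 to 1.47) above the lowest in the transgenic library (beta-like over immune-like), and 7.86-fold (5.06 to 12.9) in the wild type (alpha-like over immune-like). Without Cela1 and Clps, which are described on their own below, transgenic cells had 2.35 UMIs of the set per beta-like cell (2.30 to 2.41), 2.03 per alpha-like cell (1.92 to 2.14), 1.32 per delta-like cell (1.17 to 1.49) and 1.76 per immune-like cell (1.56 to 1.99). The highest of these 4 was 1.78-fold (1.57 to 2.02) above the lowest. The immune-like value includes 1 cell with 50 UMIs of the full set. Wild type values were 0.346 (0.326 to 0.367), 0.424 (0.366 to 0.490), 0.291 (0.197 to 0.416) and 0.174 (0.0994 to 0.282), the highest 2.44-fold (1.46 to 4.36) above the lowest. Scaled to the UMIs of each class the order changed: the transgenic library had 74.3 CPM in beta-like cells, against 130 (alpha-like), 133 (delta-like) and 153 (immune-like). The beta-like class was thus the highest per cell and the lowest in CPM, and a median of 60.5% of its UMIs were insulin.

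**Figure D3:**
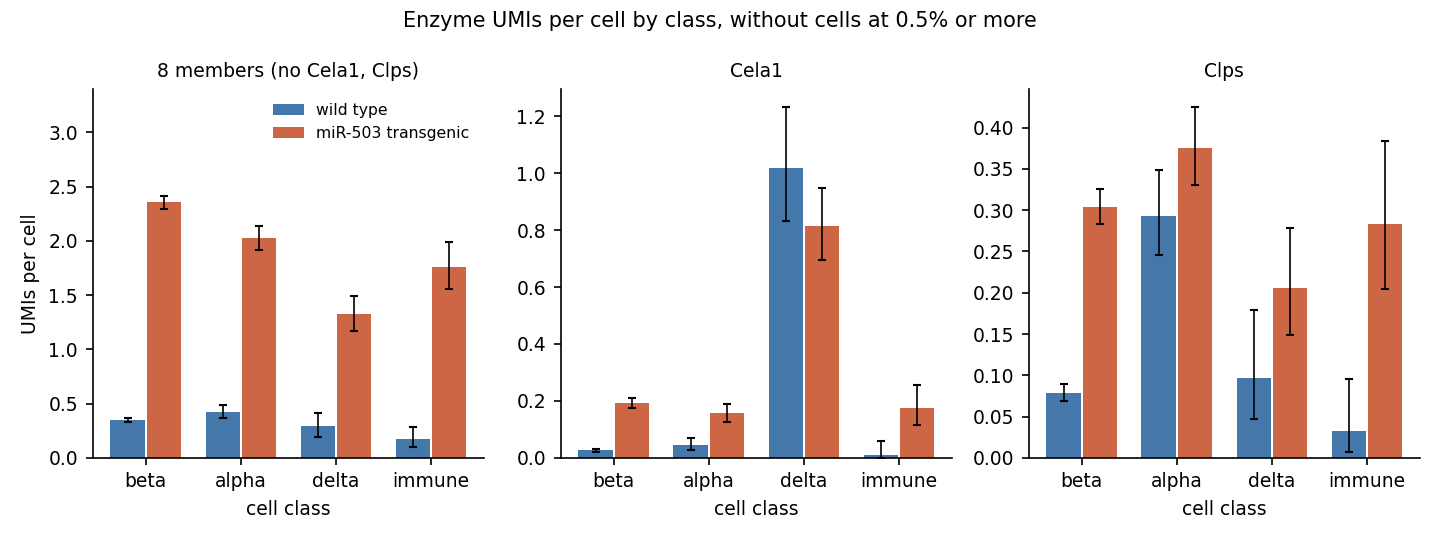
UMIs per cell (bars, with exact Poisson 95% intervals) of 8 enzyme genes together, of Cela1 and of Clps in 4 classes of both libraries, without cells at 0.5% or more. The 8 genes are higher in each transgenic class, the Clps intervals of the libraries overlap in alpha-like and delta-like cells, and Cela1 is highest in delta-like cells of both libraries.

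The makeup of the traces was compared between classes for the 8 genes left without Cela1 and Clps, which were left out because they were uneven. Cela1 alone made up 72.4% of the set's UMIs in wild type delta-like cells. Clps held 130 of 338 such UMIs in wild type alpha-like cells, against 256 of 1470 in beta-like cells. Leaving both out made overlap among the other 8 likelier, so that overlap is a description. Among the 8, the shares of alpha-like and beta-like cells had overlapping 95% intervals for 8 of 8 genes in each library, with differences of at most 1.52 percentage points in the transgenic and 6.47 in the wild type library. Ctrb1 took 29.1% (28.0 to 30.3) of the 8 in transgenic beta-like cells, 28.8% (26.4 to 31.3) in alpha-like cells and 32.2% (26.7 to 38.2) in delta-like cells. Transgenic immune-like cells were apart from beta-like cells in 2 of 8 genes, with differences of up to 8.43 points. Ctrb1 took 20.7% (15.9 to 26.1) there, and Cela2a 13.0% (9.19 to 17.7) against 7.92% (7.26 to 8.62) in beta-like cells. Of the 261 UMIs behind these immune-like shares, 44 came from 1 cell. That cell held 16 of the 34 Cela2a UMIs and 4 of the 54 Ctrb1 UMIs. Shares without it were not computed, so both differences may rest on 1 cell. In the wild type library delta-like and immune-like shares differed from beta-like shares by up to 6.06 and 20.7 points, on 30 and 16 UMIs, with overlapping intervals for 8 of 8 genes. Intervals on so few UMIs are wide, so this overlap shows little. Between libraries, 6 of 8 shares in beta-like cells overlapped. Prss2 took 8.24% (6.71 to 10.0) of the wild type and 17.1% (16.1 to 18.0) of the transgenic sum. Try4 took 16.8% (14.7 to 19.2) against 10.0% (9.27 to 10.8).

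In makeup the transgenic trace lay between the pair of acinar cells for 8 of the 10 genes, with Cela3b above both and Cpa1 below both. The pair lay far apart for several genes, so a share between them is easily reached. Whether the trace came from these cells was not tested. Try5 took 15.3% of the 10 genes in transgenic beta-like cells outside the high ones, against 4.75% in the first acinar cell and 35.9% in the second. Try4 took 8.26%, between 9.96% and 2.30%, and Prss2 14.1%, between 9.08% and 16.1%. Cela2a took 6.54%, against 21.4% and 5.78%. For Ctrb1 the trace share was 24.0%, between 17.5% and 24.8%.

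Hormone traces did not differ between libraries in the same way. Immune-like cells carried 365 insulin UMIs per cell in the wild type (361 to 369) and 291 in the transgenic library (288 to 294), with medians of 255 and 257.5. The wild type mean includes 1 cell with 6197 insulin UMIs. Gcg stood at 26.2 and 33.0 UMIs per immune-like cell, Ppy at 23.4 and 27.5, and Sst at 2.57 and 3.80. The highest wild type values in a cell were 452 for Gcg and 50 for Sst. Medians were 20 and 29 for Gcg, 22 and 25 for Ppy, and 2 and 3 for Sst. In immune-like cells the 10 enzyme genes stood at 0.217 and 2.22. Cells classed by endothelial markers (104 and 25 cells) had 231 and 287 insulin UMIs per cell, so the direction for insulin differed by class. In these endothelial-like cells Gcg stood at 14.6 and 24.4, Ppy at 15.7 and 19.4, and Sst at 1.28 and 2.76. All of these hormone values were higher in the transgenic library, as in immune-like cells. The enzyme values of endothelial-like cells were 0.192 and 1.44.

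The number of enzyme UMIs went with depth. In transgenic beta-like cells split into 5 bins of rising depth, the 10 genes went from 2.07 UMIs per cell (1.95 to 2.19) at a median of 20070 UMIs to 3.45 (3.29 to 3.61) at 47539, while the CPM went from 109 to 69.4. Beta-like cells of the wild type had 0.293 (0.253 to 0.338) in the lowest bin, 0.613 (0.554 to 0.676) in the fourth and 0.505 (0.452 to 0.563) in the highest. At near-equal median depths of 19988 (wild type) and 20070 (transgenic), the beta-like values were 0.416 and 2.07. Alpha-like cells ran from 0.416 to 1.36 with the wild type label, and from 1.73 to 3.54 with the transgenic one.

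**Figure D4:**
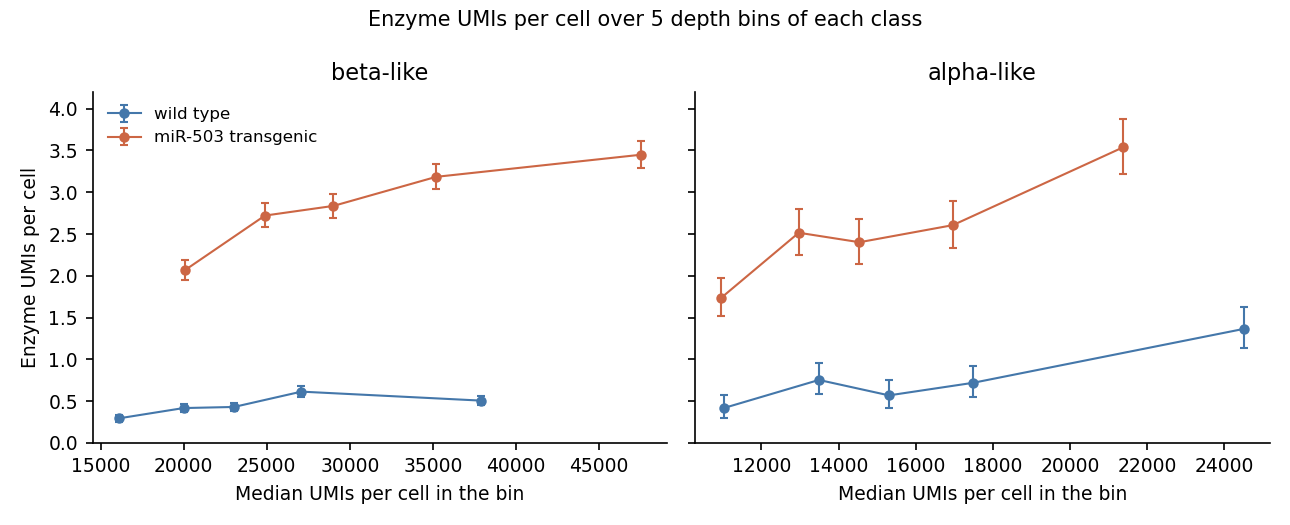
UMIs of the 10 enzyme genes per cell (points, with exact Poisson 95% intervals) against the median total UMIs of 5 depth bins of beta-like and alpha-like cells, without cells at 0.5% or more. The transgenic points lie above the wild type points at every depth shown.

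At equal depth the share of cells with any UMI of the set was higher in each transgenic class. With each cell thinned to 3000 UMIs and no cell left out, 4.85% of wild type beta-like cells (4.13 to 5.64), 12.6% of alpha-like cells (9.67 to 16.1), 17.5% of delta-like cells (10.7 to 26.2) and 7.61% of immune-like cells (3.11 to 15.1) had a UMI. The transgenic shares were 23.3% (21.7 to 25.0), 37.7% (34.0 to 41.5), 45.1% (38.1 to 52.2) and 38.5% (30.6 to 46.9). Unthinned, they were 29.0%, 40.8%, 43.7% and 17.4% in the wild type and 92.0%, 89.2%, 82.4% and 81.8% in the transgenic library. These shares count all 10 genes. For the 8 without Cela1 and Clps, unthinned wild type shares were 23.5%, 26.4%, 19.4% and 14.1%, with cells at 0.5% or more left out. The transgenic ones were 87.8%, 83.3%, 67.2% and 75.7%. Delta-like cells were thus not the highest class for the 8 genes unthinned, and thinned shares of the 8 were not computed.

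Cela1, 1 of the 3 elastases, was spread differently from the rest of the set. Delta-like cells had 1.02 Cela1 UMIs per cell in the wild type (0.834 to 1.23) and 0.814 in the transgenic library (0.695 to 0.947). Beta-like cells had 0.0264 (0.0211 to 0.0326) and 0.193 (0.177 to 0.211), alpha-like cells 0.0451 and 0.156, and immune-like cells 0.0109 (1 UMI) and 0.176. The delta-like value was 38.6-fold (28.8 to 52.0) above beta-like cells in the wild type and 4.21-fold (3.51 to 5.03) in the transgenic library. The difference was 0.993 UMIs per cell (0.798 to 1.19) and 0.620 (0.496 to 0.745). In both libraries 3.55% and 3.68% of the genes with at least 100 UMIs were at least 2-fold higher per delta-like than per beta-like cell. Cela1 was found in 26.2% of wild type delta-like cells (18.0 to 35.8) and 32.8% of transgenic ones (26.4 to 39.7), at up to 20 and 16 UMIs in 1 cell. The share of immune-like cells with a Cela1 UMI was 1.09% and 16.2%, at median depths of 10440.5 and 9668.5 UMIs against 8782 and 9226.5 in delta-like cells.

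The other 9 genes each stood between 0.00971 and 0.0971 UMIs per wild type delta-like cell and between 0.0441 and 0.426 per transgenic delta-like cell. Gamma-like cells, which make pancreatic polypeptide, also carried Cela1, at 0.489 (0.357 to 0.654) and 0.560 (0.417 to 0.737) UMIs per cell, 18.5-fold and 2.90-fold above beta-like cells. The delta-like ratio of Cela1 between libraries was -0.32 (-0.68 to 0.05) on the log2 scale, an interval that holds 0.

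Clps, the colipase, was uneven in the wild type library. Alpha-like cells had 0.293 UMIs per cell (0.245 to 0.348) and beta-like cells 0.0786 (0.0693 to 0.0888), a 3.73-fold difference (3.0 to 4.63). In the transgenic library the values were 0.376 (0.330 to 0.426) and 0.304 (0.283 to 0.326), a 1.24-fold difference (1.07 to 1.43). Single cells weighed in these transgenic sums: 1 alpha-like cell held 23 of 248 Clps UMIs and 1 beta-like cell 56 of 799. The difference without these cells was not computed. Of all genes, 5.15% of 11288 and 5.46% of 11217 were at least 2-fold higher per alpha-like than per beta-like cell in the 2 libraries. The differences for Clps were 0.215 (0.163 to 0.266) and 0.0718 (0.0205 to 0.123) UMIs per cell. Gamma-like cells stood at 0.326 and 0.319. Delta-like cells stood at 0.0971 and 0.206, and immune-like cells at 0.0326 and 0.284.

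The libraries were then compared gene by gene, with the class sums scaled by the trimmed mean of M values. In beta-like cells over all kept cells the summed set was 1.68 higher on the log2 scale in the transgenic library (1.61 to 1.74), and at least 2-fold higher values were read for 8 of 10 genes, against 1.65% of all 11945 genes with at least 100 UMIs. Without the cells at 0.5% or more the sum stood at 2.65 (2.57 to 2.73), the count was 10 of 10, and the share of all 11943 genes 1.67%. The genes were chosen with these values known, so the count is a description. Prss2 was highest at 3.81 (3.5 to 4.13) on 93 and 1057 UMIs, followed by Cela2a at 2.88 (2.54 to 3.24), Cela1 at 2.86 (2.53 to 3.21), Try5 at 2.82 (2.61 to 3.05) and Ctrb1 at 2.73 (2.56 to 2.90). Cela3b stood at 2.60, Cpa1 at 2.57 and Pnlip at 2.36. Try4 at 2.0 (1.77 to 2.25) and Clps at 1.94 (1.74 to 2.15) were lowest. The intervals of Try4 and Clps overlapped each other and lay below those of Prss2, Ctrb1, Try5, Cela2a and Cela1.

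Alpha-like, delta-like and immune-like cells, outside the labelled site of the transgene, also had higher sums in the transgenic library. In alpha-like cells the sum stood at 0.69 (0.57 to 0.82) over all kept cells and at 1.86 (1.69 to 2.03) without the 1 wild type cell at 2.98%. Of the genes with at least 100 UMIs, 3 of 9 were at least 2-fold higher with that cell (0.62% of all 8382 genes) and 7 of 8 without it (0.668%), the exception being Clps at 0.47 (0.16 to 0.78). In delta-like cells the sum stood at 0.74 (0.47 to 1.02) with Cela1 and Clps and at 2.19 (1.65 to 2.79) without them. Cela1 alone had at least 100 UMIs there and was not 2-fold higher, where 0.187% of 3740 genes were. In immune-like cells the sum stood at 3.29 (2.64 to 4.02), with no gene of the set at 100 UMIs and 2.97% of 2833 genes at least 2-fold higher. The immune-like class differed in makeup between the libraries: the macrophage gene C1qa stood at 2094 CPM in wild type and 846 in transgenic cells, Tyrobp at 1476 and 807, and the T cell gene Cd3d at 3.79 and 47.9. In the 1 cluster named immune-like, with 81 and 82 cells, the log2 ratio was 3.38 (2.73 to 4.10). The part of this makeup in the difference was not tested further. For the 8 genes the sum was 2.76 (2.67 to 2.85) in beta-like cells, 2.37 (2.15 to 2.59) in alpha-like cells and 3.27 (2.55 to 4.10) in immune-like cells.

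**Figure D5:**
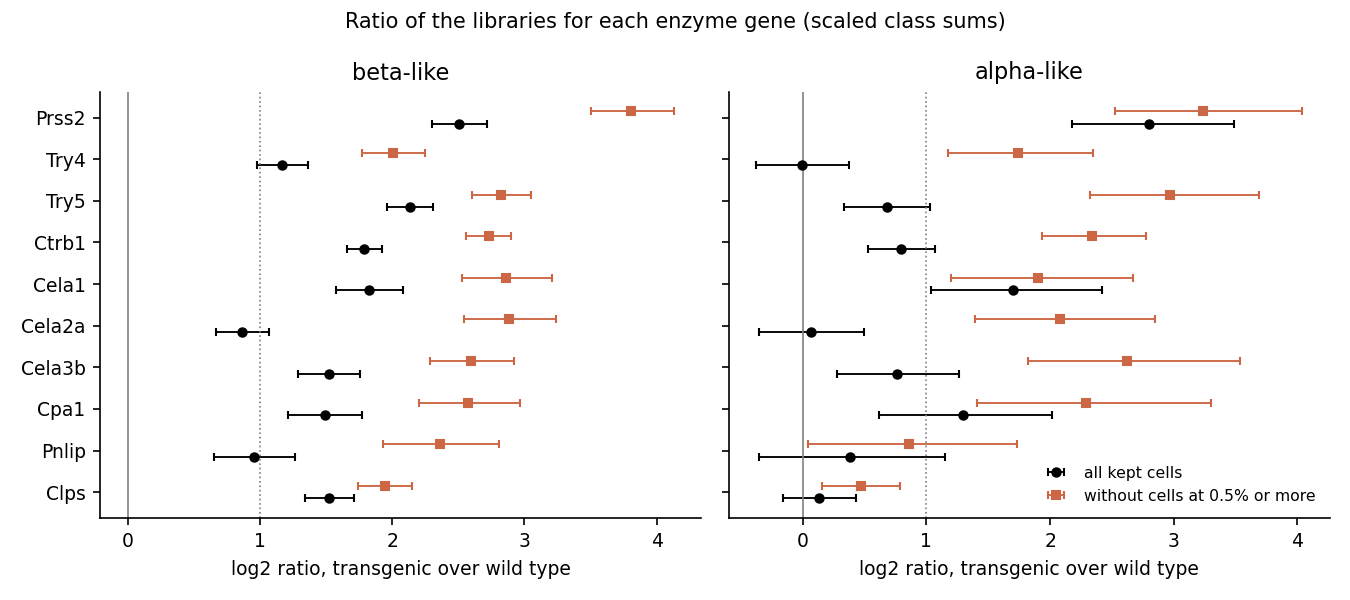
Log2 ratio of transgenic over wild type class sums with exact 95% intervals for each enzyme gene in beta-like and alpha-like cells, over all kept cells (black circles) and without cells at 0.5% or more (red squares). The solid line marks no difference and the dotted line 2-fold. The red squares lie to the right of the black circles for each gene, and Prss2 stands highest in both classes.

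Of the 39 other acinar genes, 22 had a transgenic over wild type ratio per beta-like cell whose interval lay above 0 on the log2 scale. The interval lay below 0 for 4, and 13 spanned 0 or had no UMI in a library. Of all 17013 genes with a UMI in both libraries, 21.5% had an interval above 0 and 20.9% below 0, while 30 of the acinar genes had a UMI in both. With at least 10 UMIs in each library, 15 of 19 acinar genes lay above 0 and 1 below, against 24.5% and 24.9% of 13809 genes. By role, low counts included, intervals above 0 were read for 6 of 11 proteases, 5 of 8 lipases, amylases and ribonucleases, 10 of 11 granule and Reg proteins (only 4 of them with at least 10 UMIs in each library), 1 of 5 transcription factors and 0 of 4 receptors. Proteases and their kin outside the set included 2210010C04Rik at 2.60 (2.28 to 2.93), the chymotrypsin-like Ctrl at 2.66 (2.22 to 3.13) and Cpb1 at 2.70 (2.25 to 3.18). Reg1 stood at 4.47 (3.88 to 5.13), the lipase-related Pnliprp1 at 4.22 (3.61 to 4.90) and Zg16 at 3.18 (2.63 to 3.79). The genes below 0 were Prss1 at -6.12 (-11.44 to -3.60), on 86 and 1 UMIs, Prss3 at -4.15 (-5.80 to -2.88), Gm5771 at -2.34 (-3.23 to -1.54) and the transcription factor gene Gata4 at -1.78 (-3.81 to -0.16), on 17 and 4 UMIs. Bhlha15, a transcription factor of secretory cells, stood at 0.22 (0.08 to 0.35) on 876 and 821 UMIs, and the muscarinic receptor gene Chrm3 at 0.00 (-0.15 to 0.15).

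Over 12 sums of a class in a library, the genes whose log2 CPM went most closely with that of the set were Cpb1 (Pearson r = 0.911), Rnase1 (0.846), Ten1 (0.835), 1110008L16Rik (0.835), Zfp160 (0.829) and Gm26890 (0.812), out of 11596 genes. Cpb1 and Rnase1 are acinar enzymes. These points share libraries and depth and rest on few UMIs, with Cpb1 between 0 and 7.37 CPM, so the order is a description. The 8 listed acinar genes among them had r from -0.169 to 0.911 with a median of 0.532, against a median of 0.0935 for all genes.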

How the data were processed

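Single-cell counts of 1 wild type and 1 transgenic islet library were used. Per the submitters' processing notes the authors used mm10 as the genome build, with Cell Ranger 2.1.0 and the aligner STAR 2.5.1b. The deposited values are counts, whole UMIs per gene and barcode with no normalization, and the authors' filter on barcodes and the annotation release are not given in the sources used here. Cells were kept with at least 500 genes, at least 1000 UMIs and at most 10% mitochondrial UMIs, which removed 20 and 15 barcodes. Scrublet in scanpy 1.11.5 marked 5 (0.111%) and 4 (0.0965%) cells on its own, too few to have worked, so the top 4% of scores (181 and 166 cells) were removed. Cells kept had medians of 21493 and 24586 UMIs.

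Classes came from hormone or marker shares of UMIs outside the set. As an alternative, Leiden clusters (igraph 0.11.9) made without digestive genes were named from fixed markers by a mean marker score: 13 of 18 were named. The thresholds of that rule were set after the data were seen. UMIs were summed per class and library, and ratios between libraries used factors by the trimmed mean of M values, computed in numpy 2.4.6 and scipy 1.17.1 with Python 3.11.15. Genes with at least 100 UMIs over the classes compared entered counts of 2-fold differences. No test across samples was made, since each group is 1 library. The upper limit beside a count of 0 is 3 counts. The ratio code was tested on simulated data. The members and gene lists were chosen with earlier results of these data known. Named were all members, other acinar genes with at least 100 UMIs in acinar cells (at most 12), and the 6 genes most like the set; genes named beyond these were chosen after their values were seen. Amy2b and Spink3 of the acinar list were not in the gene table. One gene that the naming rule picks is not reported here. Alternatives were other acinar thresholds, no doublet removal, at most 5% mitochondrial UMIs, the clusters, other scalings, thinning to 5000 UMIs and leaving out high cells; cells at 0.5% or more were set apart after the data were seen. Promoter sequences are from RefSeq (GRCm38.p6).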

Additional observations from a re-analysis of the deposited data

How the results depend on the processing

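Each group was 1 library, so no replicate could be left out. No paired analysis was possible because each group has 1 library and no test was made. Of 140 values recomputed under alternatives, 105 were called the same, 35 moved and 0 reversed. A value was the same within the counting interval of the reported one, except that acinar cell counts were judged by fold. Only the log2 ratios between libraries could be called reversed. Values from the named clusters and without doublet removal were all among the 105.

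A threshold of 10% gave 4 acinar cells in the transgenic library and one of 40% gave 1. Thinned to 5000 UMIs, cells with a UMI of the set were 7.52% of beta-like and 34.0% of delta-like cells in the wild type, and 36.9%, 53.6%, 64.7% and 62.8% of transgenic beta-like, alpha-like, delta-like and immune-like cells. With at most 5% mitochondrial UMIs the wild type beta-like value was 0.999 UMIs per cell and the beta-like log2 ratio 1.55. Scaling by total UMIs gave a beta-like log2 ratio of 1.35. Evenness in CPM was 2.56-fold in the transgenic library.

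Without cells at 1% or more, wild type beta-like and alpha-like values were 0.553 and 0.763 UMIs per cell, and the log2 ratios 2.39 and 1.86. At 0.5% the values were 0.451 and 0.763, and the ratios 2.65 and 1.86. Leaving out Cela1 and Clps as well gave 0.346, 0.424 and 0.291 UMIs per wild type beta-like, alpha-like and delta-like cell, and 2.35, 2.03, 1.32 and 1.76 per transgenic beta-like, alpha-like, delta-like and immune-like cell. The log2 ratios were then 2.76, 2.37 and 2.19 in beta-like, alpha-like and delta-like cells. Evenness was 1.78-fold (transgenic) and 2.44-fold (wild type) per cell, and 2.05-fold and 2.17-fold in CPM. The delta-like log2 ratio without Cela1, the most abundant gene there, was 1.99. These settings hold fewer cells or genes by construction; the cause of the change with 5% mitochondrial UMIs was not tested. Settings at 0.5% and without Cela1 and Clps were chosen after seeing the data.

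Depth limits the wild type delta-like and immune-like values, which rest on 145 and 20 UMIs of the set, and 2 acinar cells allow no statement on acinar cells in general.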
